A study of Mus musculus with 8 samples.

Results

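The insulin-like growth factor (IGF) axis was followed here through 10 genes of the 23284 in the count files: the ligand Igf2, the receptors Igf1r, Igf2r and Insr, the adaptor Irs2, and the IGF binding proteins Igfbp2, Igfbp3, Igfbp4, Igfbp5 and Igfbp6. They were taken by gene symbol from a list of axis members, and the list was chosen from the contrast described below, so the differences between the groups for these 10 genes are a description and carry no test. The libraries came from mouse preSCs, a cell type name used as the labels give it. The cells were derived from a strain background of 129/SvJ and C57BL/6 carrying Chga-GFP with Rb lox/lox, p53 lox/lox and p130 lox alleles. Both groups share those alleles, and both were polyclonal populations that had been transduced with a guide RNA, selected with puromycin and expanded without treatment. The 4 Ctrl libraries came from populations given a control guide and the 4 MaxKO libraries from populations given a guide against Max. The labels give no age or animal number, and nothing in them ties a replicate to a culture of its own, so every error and p-value reflects library-to-library spread alone, and that spread may be technical. A polyclonal population can hold edited and unedited cells.

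IGF2 is a secreted growth factor that signals through the receptor tyrosine kinases IGF1R and INSR, while IGF2R carries it to the lysosome for breakdown. The activated receptors phosphorylate IRS adaptors, which recruit PI3K and the RAS-MAPK cascade, and AKT then keeps FOXO transcription factors out of the nucleus. IGF binding proteins hold IGFs outside the cell and, depending on context, block or prolong their access to the receptors. MAX is the obligate partner of MYC, and MYC-MAX dimers bind the E-box CACGTG. Neuroendocrine lung tumours are known to make IGF2 and IGF binding proteins.

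Gene reads per library numbered 14952291 to 19480947 in MaxKO and 13711278 to 19804949 in Ctrl. Levels are given as reads of a gene per 1000000 gene reads, scaled by TMM factors (CPM). Max itself had 42.3, 42.3, 59.1 and 68.0 CPM in MaxKO 1 to 4 and 65.5, 70.2, 75.2 and 61.9 CPM in Ctrl 1 to 4, a log2 fold change of -0.37 (SE 0.15, edgeR quasi-likelihood adjusted p = 0.0955). The groups overlapped, and a count of reads over the gene does not show whether its coding sequence was edited, so this does not check the MaxKO label. Chga, the gene named in the reporter allele, was at 398 to 478 CPM in MaxKO and 446 to 466 CPM in Ctrl, and all 12 neuroendocrine markers listed passed the count filter. Of those 12, 1 rose and 3 fell at an edgeR adjusted p under 0.05, beside 10.9% and 12.2% of all tested genes. They were named after their values were seen: Uchl1 by 0.41, and Chgb, Scg2 and Resp18 by -0.37, -0.57 and -0.53 on the log2 scale. The groups overlapped for Uchl1, with 748 CPM in Ctrl 3 and 687 to 833 CPM in MaxKO. They also overlapped for Resp18, with 119 and 112 CPM in Ctrl 3 and 4 and 96.7 to 114 CPM in MaxKO. Calca, also named after its values were seen, had 1980 and 1783 CPM in Ctrl 1 and 2, 399 and 467 CPM in Ctrl 3 and 4, and 524 to 589 CPM in MaxKO. Of the markers of other cells, 9 of 12 fibroblast, 10 of 11 haematopoietic, 7 of 9 endothelial and 6 of 10 other lung epithelial genes stayed under 1 CPM in every library, with Lum, Tyrobp, Emcn, Scgb3a2 and Krt5 at 0 throughout. The marker sums that follow, and the limit of 1 CPM just used, refer to plain library totals without TMM factors. The fibroblast sum was 50.1 to 65.9 CPM in MaxKO and 34.1 to 49.3 CPM in Ctrl, most of it Dcn. Without Dcn the sum was 1.67 to 3.35 CPM and 5.97 to 14.3 CPM. The endothelial sum was 588 to 696 CPM in MaxKO and 258 to 427 CPM in Ctrl and was nearly all Vwf, which is also made outside endothelium; without it the sums were 1.05 to 1.54 CPM and 1.16 to 2.84 CPM. The part of any of these marker genes in the results below was not tested. The controls were not alike: the share of reads outside annotated genes was 18.5% and 18.6% in Ctrl 1 and 2, 23.3% and 23.4% in Ctrl 3 and 4, and 20.5% to 21.5% in MaxKO. For that reason the axis genes are shown in every control, and their log2 fold changes are also given for Ctrl 1 and 2 alone and for Ctrl 3 and 4 alone. Ctrl 3 and 4 were not alike in their gene reads, with a chi-square per degree of freedom of 25.8 between them. It was 4.75 between Ctrl 1 and 2, and 24.8 to 37.7 between a library of one pair and a library of the other.

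The stretches upstream of the axis genes are shown because MAX-containing dimers bind a short, well-defined sequence. RefSeq promoters (GRCm38.p6) were found for 9 of the 10 genes, all but Insr, with 13 annotated starts in all. In the 250 bases before each start, CACGTG was searched on both strands, on which it reads the same. It was present in 3 of 13 windows, against 6.021% of 32851 windows of the same length across RefSeq mouse starts. The 3 windows that hold it and the Igfbp5 window, which does not, are printed 5′ to 3′ on the strand of the gene, with CACGTG in capitals.
Igfbp2, first start, chr1:72824230-72824479, plus strand: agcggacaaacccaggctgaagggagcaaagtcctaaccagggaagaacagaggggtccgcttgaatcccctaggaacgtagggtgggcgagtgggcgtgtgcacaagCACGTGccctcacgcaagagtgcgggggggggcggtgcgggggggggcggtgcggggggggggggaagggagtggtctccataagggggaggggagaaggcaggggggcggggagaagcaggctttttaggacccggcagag
Irs2, chr8:11008930-11009179, minus strand: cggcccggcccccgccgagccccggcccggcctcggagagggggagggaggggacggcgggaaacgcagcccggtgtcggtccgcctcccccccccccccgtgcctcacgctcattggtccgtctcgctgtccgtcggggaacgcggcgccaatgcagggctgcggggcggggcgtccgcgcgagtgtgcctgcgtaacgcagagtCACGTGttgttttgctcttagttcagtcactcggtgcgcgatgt
Igf2r, chr17:12769707-12769956, minus strand: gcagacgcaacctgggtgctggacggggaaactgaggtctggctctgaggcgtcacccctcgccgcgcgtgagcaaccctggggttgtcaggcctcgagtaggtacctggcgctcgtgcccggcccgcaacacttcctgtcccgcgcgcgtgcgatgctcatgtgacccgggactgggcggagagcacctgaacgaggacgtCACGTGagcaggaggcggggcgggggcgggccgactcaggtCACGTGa
Igfbp5, chr1:72874866-72875115, minus strand: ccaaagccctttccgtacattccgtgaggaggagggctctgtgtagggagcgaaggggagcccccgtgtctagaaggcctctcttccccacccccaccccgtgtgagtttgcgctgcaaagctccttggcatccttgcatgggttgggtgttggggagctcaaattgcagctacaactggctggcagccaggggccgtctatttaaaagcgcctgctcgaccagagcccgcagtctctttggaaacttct

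The first base of CACGTG lay 142 bases before the first Igfbp2 start and 44 bases before the Irs2 start. The Igf2r window held the motif at 48 and at 7 bases before the start. The 2nd Igfbp2 start and the 4 Igf2 starts had none, nor did those of Igf1r, Igfbp3, Igfbp4 and Igfbp6. The other motifs were searched on both strands. ACGTG, the core of the hypoxia response element, overlaps CACGTG by construction and stood in 4 of 13 windows against 16.57% of all windows, the added one being an Igf2 start. GTAAACA, a forkhead motif, stood in none of the 13 and in 3.166% of all windows, and GGGCGG, the GC box, in 6 of 13 and in 32.74%. The Igfbp5 window held none of the 4. A match is a description of the letters and shows no binding.

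In controls, the axis was dominated by the ligand and 1 binding protein. On a scale of CPM per kilobase of exon, with exon lengths from GENCODE vM21, Igfbp5 was at 349 ± 102 (SD, n = 4) and Igf2 at 81.2 ± 9.55. Igfbp2 followed at 11.96 ± 11.20, Igf2r at 10.9 ± 1.33, Igf1r at 7.58 ± 1.51, Insr at 7.06 ± 0.935 and Irs2 at 6.25 ± 1.44. The place of Igfbp2 rests on Ctrl 3: over the other 3 controls it was at 6.38 ± 0.859 (SD, n = 3), below Igf2r (11.4), Igf1r (7.45), Irs2 (6.96) and Insr (6.91). With all 4 controls Igfbp2 and Igf2r did not differ beyond their spread, nor did Igf1r and Insr, nor Insr and Irs2. Among 12059 tested genes with a length, Igfbp5 ranked 123 and Igf2 780 by this level in Ctrl. In MaxKO, Igfbp5 stood at 667 ± 38.3 and ranked 47, Igf2 stood at 65.0 ± 5.77 and ranked 1066, and Igfbp2 stood at 1.20 ± 0.228, its rank going from 5487 in Ctrl (7567 without Ctrl 3) to 10279. The order of the receptors and the adaptor was the same in MaxKO, with Igf2r at 13.2 ± 0.940, Igf1r at 11.5 ± 0.936, Insr at 8.35 ± 0.508 and Irs2 at 8.22 ± 0.631, and the last pair again lay within their spread.

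Of the 10 genes, 7 passed the count filter and 3 did not. By edgeR's quasi-likelihood test with Benjamini-Hochberg adjustment over all 13358 tested genes, 4 of the 7 were called at an adjusted p under 0.05, Igf1r and Igfbp5 higher and Igf2 and Igfbp2 lower in MaxKO. Over all tested genes 23.1% were called, 10.9% higher (1457 genes) and 12.2% lower (1627 genes); with upper-quartile scaling the split was 1160 higher and 1965 lower. The libraries of the groups did not overlap for 5 of the 7 genes and for 26.4% of all tested genes. The median log2 fold change of the 7 was 0.27 and that of all tested genes was -0.004. Since the list was chosen from this contrast, nothing is read from these counts or from the median.

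Igf2, the growth factor of the axis, was abundant in every library. It had 336, 317, 326 and 385 CPM in MaxKO 1 to 4 and 394, 406, 404 and 501 CPM in Ctrl 1 to 4. The highest MaxKO library lay just under the lowest control, so the groups did not overlap, but by a narrow margin. The log2 fold change was -0.32 (SE 0.10), from 426 ± 50.1 CPM in Ctrl to 341 ± 30.3 CPM in MaxKO (SD, n = 4 each). It was -0.23 against Ctrl 1 and 2 alone and -0.42 against Ctrl 3 and 4 alone. The call was lost when MaxKO 1, 2 or 3 or Ctrl 4 was left out, with log2 fold changes of -0.32, -0.29, -0.31 and -0.23. Igf2as, the nearest tested gene on one side of Igf2 and its annotated antisense partner, had 63.3 to 72.2 CPM in MaxKO and 63.2 to 79.7 CPM in Ctrl, a log2 fold change of 0.00 (SE 0.09, edgeR adjusted p = 0.997), with a sign that turns under other settings. The strand setting of the counting is not given in the sources used here, so reads of the pair cannot be told apart by strand. The other ligands were at or near the limit of detection: Igf1 had at most 4 reads in a library, Ins2 1 read in all, and Ins1 none. Limits of 3 reads correspond to 0.151 to 0.219 CPM in these libraries and cover counting error only.

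Igf1r, the receptor through which IGF1 and IGF2 drive growth, had 144, 135, 119 and 129 CPM in MaxKO 1 to 4. In Ctrl 1 to 4 it had 73.7, 72.2, 90.8 and 109 CPM. Every MaxKO library was above every control, and Ctrl 3 and Ctrl 4 stood above Ctrl 1 and Ctrl 2. The log2 fold change was 0.61 (SE 0.12). It was 0.85 against Ctrl 1 and 2 alone and 0.39 against Ctrl 3 and 4 alone. Insr, the insulin receptor, which also binds IGF2, had 75.2, 85.2, 75.9 and 76.1 CPM in MaxKO and 61.5, 56.5, 70.4 and 76.0 CPM in Ctrl. Ctrl 4 reached the level of MaxKO 1, 3 and 4, so the groups overlapped, and the log2 fold change of 0.24 (SE 0.10) was not called. As a ratio that does not depend on library scaling, there were 1.56 to 1.92 Igf1r reads per Insr read in MaxKO and 1.20 to 1.44 in Ctrl, without overlap.

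Igf2r, the clearance receptor, had 115, 128, 117 and 108 CPM in MaxKO and 93.1, 96.9, 85.0 and 113 CPM in Ctrl. Ctrl 4 lay above MaxKO 4, and the log2 fold change of 0.27 (SE 0.09) was not called. DESeq2 called it at the same size (0.27). Airn, a non-coding RNA transcribed across Igf2r from the other strand, had 4.95 to 7.83 CPM in MaxKO and 3.61 to 7.85 CPM in Ctrl, a log2 fold change of 0.25 (SE 0.24, edgeR adjusted p = 0.506). It was 0.71 against Ctrl 1 and 2 alone and -0.13 against Ctrl 3 and 4 alone.

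Irs2, an adaptor that links the receptors to PI3K, had 49.9, 56.5, 47.6 and 54.0 CPM in MaxKO and 45.2, 45.1, 26.1 and 41.7 CPM in Ctrl. The groups did not overlap, yet Ctrl 1 and 2 lay close to MaxKO 3, and Ctrl 3 stood well below the other controls. The log2 fold change of 0.39 (SE 0.15) was not called with all 4 controls. It was 0.24 without Ctrl 3 and was then called. Irs1, the related adaptor and not one of the 10 genes, went the other way: it had 9.18, 10.4, 8.67 and 10.97 CPM in MaxKO and 16.6, 15.9, 15.9 and 19.6 CPM in Ctrl. It fell by 0.80 on the log2 scale (SE 0.12, edgeR adjusted p = 0.000586), and all 4 MaxKO libraries were below all 4 controls. There were 4.92 to 5.49 Irs2 reads per Irs1 read in MaxKO and 1.65 to 2.83 in Ctrl. Irs4 had no read in MaxKO and at most 4 in a control.

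**Figure D1:**
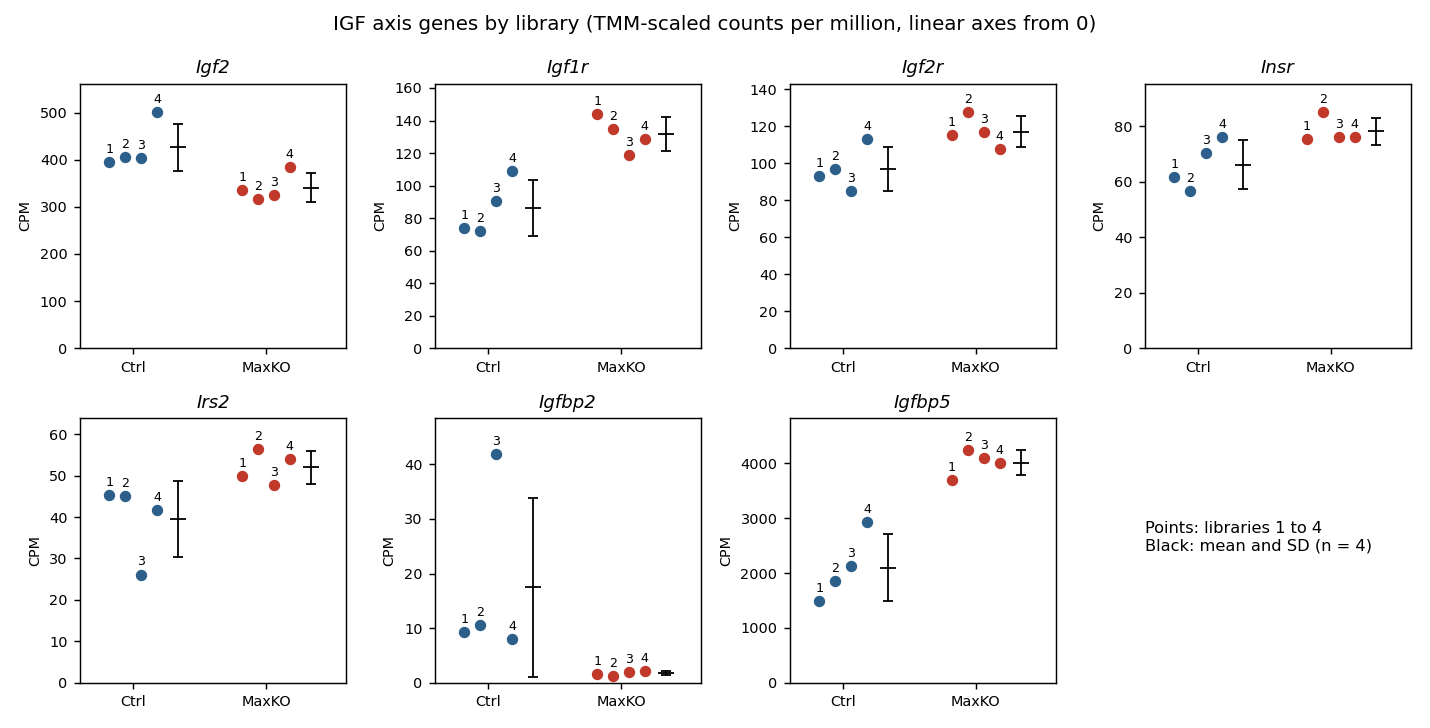
Level of the 7 axis genes that passed the count filter, in TMM-scaled CPM on linear axes from 0, with Ctrl libraries in blue and MaxKO libraries in red, each numbered 1 to 4, and the mean and SD in black (n = 4 each). Igfbp2 in Ctrl 3, at 41.9 CPM, stands far above the other controls at 8.08 to 10.6 CPM, and all MaxKO libraries lie at 1.33 to 2.11 CPM.

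Igfbp2, a binding protein with an RGD motif that also touches integrins, was the axis gene with the largest difference. It had 1.67, 1.33, 1.90 and 2.11 CPM in MaxKO 1 to 4, from 32, 20, 28 and 33 reads. In Ctrl 1 to 4 it had 9.26, 10.6, 41.9 and 8.08 CPM, from 184, 176, 573 and 144 reads. The MaxKO libraries were all below the controls, which differed among themselves mainly through Ctrl 3. The log2 fold change was -3.30 (SE 0.59) with all controls and -2.41 without Ctrl 3, so that library alone moves the value by more than 1.5 times on the linear scale. Against Ctrl 1 and 2 alone it was -2.50, and against Ctrl 3 and 4 alone -3.82. The SD of log2 CPM among controls was 1.09 for Igfbp2, larger than for 99.2% of tested genes, whose median was 0.18. Among the MaxKO libraries it was 0.27, larger than for 88.8% of genes, from 20 to 33 reads per library.

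Igfbp5, a binding protein that can also act in the extracellular matrix, was the most abundant axis gene. It had 3695, 4240, 4089 and 4010 CPM in MaxKO and 1489, 1849, 2120 and 2926 CPM in Ctrl. Every MaxKO library was above every control, and Ctrl 4 was the control nearest to them. The log2 fold change was 0.94 (SE 0.17), 1.26 against Ctrl 1 and 2 alone and 0.66 against Ctrl 3 and 4 alone. The SD of log2 CPM was 0.41 among controls, above that of 88.6% of genes, and 0.08 among MaxKO libraries, above that of 33.0%. There were 1905 to 3195 Igfbp5 reads per Igfbp2 read in MaxKO and 50.6 to 362 in Ctrl. In bulk RNA, fewer cells making a gene and less of its RNA per cell cannot be told apart.

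Igfbp3, Igfbp4 and Igfbp6 complete the binding proteins on the list and were practically without reads. Igfbp3 had 8 reads over all 8 libraries, Igfbp4 6 and Igfbp6 5, with at most 3 in any library. All are at or under the limit of 3 reads per library, so no fold change is given. Of the binding proteins outside the list, Igfbp1 had 1 read in each of 2 controls. Igfbp7, a related protein that binds IGFs weakly, had 21.6, 17.4, 18.2 and 16.7 CPM in MaxKO and 7.90, 10.9, 12.4 and 14.5 CPM in Ctrl. It rose by 0.70 on the log2 scale (SE 0.17, edgeR adjusted p = 0.00987), without overlap. Igfals, which forms the circulating ternary complex with IGFs and IGFBP3 or IGFBP5, was at 4.25 to 4.81 CPM in MaxKO and 3.93 to 4.58 CPM in Ctrl (log2 fold change 0.10, SE 0.14, edgeR adjusted p = 0.669).

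**Figure D2:**
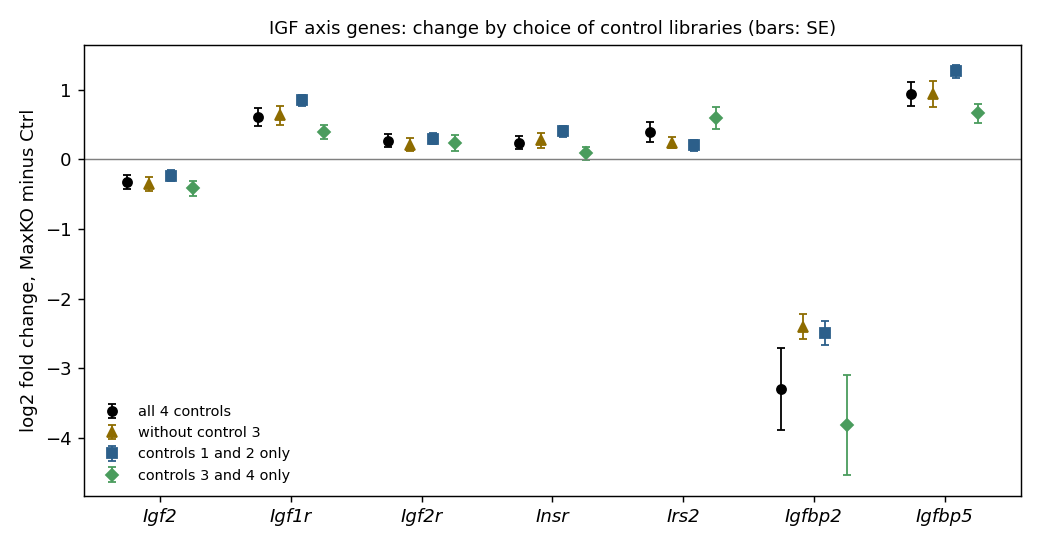
Log2 fold change, MaxKO minus Ctrl, of the 7 axis genes that passed the count filter (bars: SE), fitted with all 4 controls, without Ctrl 3, with Ctrl 1 and 2 only and with Ctrl 3 and 4 only. No gene changes sign, while Igfbp2 ranges from -3.82 to -2.41 and Igf1r and Igfbp5 are nearer 0 against Ctrl 3 and 4.

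The choice of controls set how many of the 7 genes were called but turned none of their directions. Without Ctrl 3 the called genes numbered 5, beside 27.5% of all tested genes. With Ctrl 1 and 2 only they numbered 6, beside 44.6%, and with Ctrl 3 and 4 only 5, beside 20.7%. Insr and Igf2r were called against Ctrl 1 and 2 alone, at log2 fold changes of 0.40 and 0.30, and were 0.08 and 0.23 against Ctrl 3 and 4. Irs2 went the other way, at 0.20 against Ctrl 1 and 2 and 0.60, then called, against Ctrl 3 and 4. Igf1r, Igfbp2 and Igfbp5 were called in every fit that was run, leaving out each library in turn included. Every fit reused libraries of the contrast from which the list was chosen. These calls and directions are therefore a description and carry no test. The fits that differ only in their controls share the MaxKO libraries.

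Igfbp2 and Igfbp5 are next to each other in the RefSeq gene order (GRCm38.p6), with no annotated gene between them, and they differed in opposite directions. The nearest tested gene on the Igfbp2 side, with 4 annotated genes between, was Rpl37a. Rpl37a, a ribosomal protein gene, was at 401 to 504 CPM in MaxKO and 380 to 553 CPM in Ctrl (log2 fold change -0.08, SE 0.12, edgeR adjusted p = 0.666). The nearest tested gene on the Igfbp5 side, with 18 annotated genes between, was Tns1. Tns1, an actin-linked focal adhesion gene, had 1.66 to 2.30 CPM in MaxKO and 4.68 to 7.70 CPM in Ctrl. Tns1 fell by 1.61 on the log2 scale (SE 0.20, edgeR adjusted p = 0.000231). The nearest tested gene on one side of Igf1r, with 2 annotated genes between, was Pgpep1l. It rose by 1.27 (SE 0.20, edgeR adjusted p = 0.000823), from 1.504 to 2.114 CPM in Ctrl to 3.57 to 5.27 CPM in MaxKO, while Synm, on the other side, did not pass the test. For Irs2 it was the basement membrane collagen gene Col4a1, also with 2 genes between. Col4a1 fell by 0.54 (SE 0.16, edgeR adjusted p = 0.0294), with overlap between the groups, and was -0.25 and not called against Ctrl 3 and 4 alone. Its call was also lost in 5 of the 8 fits that left out 1 library and with the replicate block (-0.53). Adcy1, the nearest tested gene on one side of Igfbp3, with 2 genes between, fell by 0.93 (SE 0.11, edgeR adjusted p = 0.000163). On one side of Igf2r, with 8 genes between, 4732491K20Rik fell by 0.49 (SE 0.16, edgeR adjusted p = 0.0431), a call that leaving out any of 7 libraries ended. The other tested neighbours, Mrpl23, Arhgef18, Myo16, Tns3, Top2a, Smarce1, Spryd3 and Soat2, did not pass the test.

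The 8 genes with the pattern most like Igfbp2 over the 8 libraries, by Pearson's r of log2 CPM, were Pcbp4 (r = 0.995), Aldh7a1 (0.992), Rtn1 (0.989), Sh2d3c (0.989), Rrp9 (0.987), Cplx1 (0.986), Cald1 (0.986) and Tbkbp1 (0.986). They were picked for that likeness, so r is a description, and each point shares its library and depth with the others. All 8 were highest in Ctrl 3 and lower in every MaxKO library than in every control. Cald1, which encodes the actin-binding protein caldesmon, had 6.64 to 8.74 CPM in MaxKO and 25.1, 26.2, 58.9 and 29.8 CPM in Ctrl. Pcbp4, an RNA-binding protein gene, had 103 to 119 CPM in MaxKO and 172, 194, 312 and 181 CPM in Ctrl. For Irs2 the 8 most alike were Ppp1r15b (r = 0.985), Efcab2 (0.984), Gna12 (0.983), Cldn25 (0.983), Ets2 (0.982), Slc36a1 (0.982), Slc35d3 (0.979) and Qsox2 (0.977). All 8 were lowest in Ctrl 3. Ets2, a transcription factor gene, had 82.6 CPM in Ctrl 3, 120 to 139 CPM in the other controls and 140 to 172 CPM in MaxKO.

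**Figure D3:**
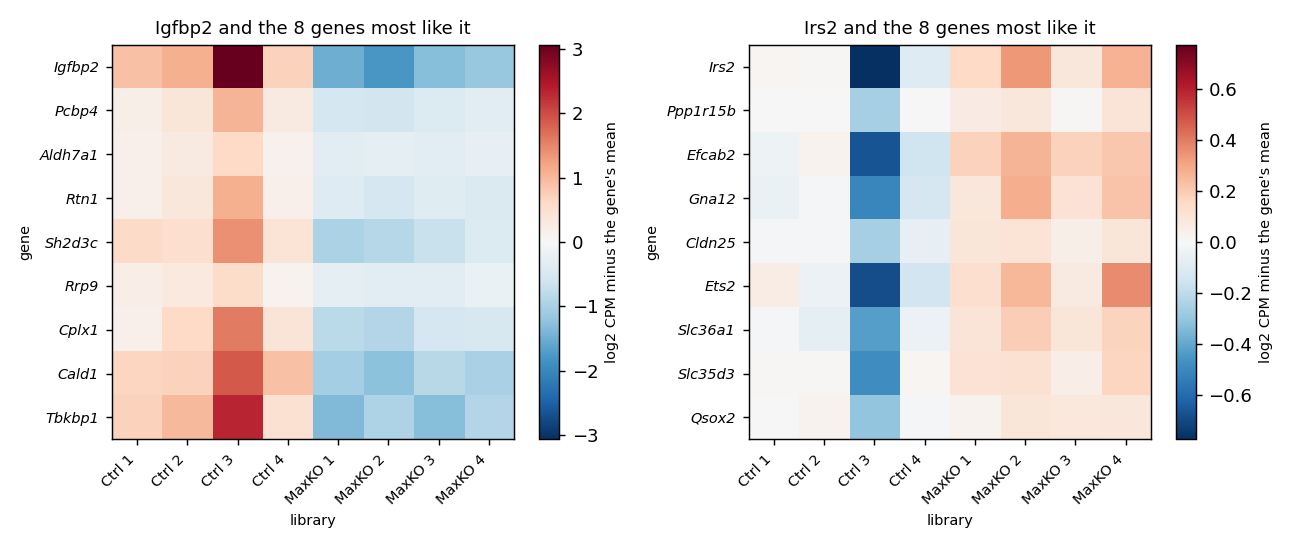
Log2 CPM minus the mean of the gene over the 8 libraries, for Igfbp2 (left) and Irs2 (right) and the 8 genes most like each, with 1 column per library and a colour scale for each panel. Ctrl 3 is the highest column for every gene on the left and the lowest for every gene on the right.

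A list of 44 other genes of the IGF system was set beside the 10. This list, and those of PI3K, RAS-MAPK, FOXO and imprinted genes below, were chosen with earlier results of these data known. Their counts and medians are therefore a description. Of the 44 genes, 31 passed the count filter. Of these 9 rose and 3 fell, beside 10.9% and 12.2% of all tested genes (23.1% called in all), with a median log2 fold change of 0.02. With upper-quartile scaling 7 rose and 4 fell, beside 1160 and 1965 of 13358 tested genes, and the median was -0.02. Lin28a, an RNA-binding protein that represses let-7 microRNAs and promotes IGF signalling, had 85.7, 85.5, 83.3 and 81.2 CPM in MaxKO and 51.6, 53.3, 51.1 and 54.5 CPM in Ctrl. The libraries of each group lay close together, and it rose by 0.67 (SE 0.07, edgeR adjusted p = 5.09e-05). Enpp1, which inhibits the insulin receptor, had 26.1, 24.4, 24.5 and 21.1 CPM in MaxKO and 10.5, 7.52, 10.6 and 15.9 CPM in Ctrl, and rose by 1.11 (SE 0.18, edgeR adjusted p = 0.00134). Grb7, an adaptor that binds activated receptors, rose by 0.47 (SE 0.08, edgeR adjusted p = 0.00156), from 73.3 to 90.7 CPM in Ctrl to 110 to 125 CPM in MaxKO. The remaining genes that rose, Grb14, Gab1, Socs2, Ide and Sh2b2, were named after their values were seen and changed by 0.63, 0.43, 0.41, 0.29 and 0.28. The calls of Ide and of Sh2b2 were each lost in 6 of the 8 fits that left out 1 library.

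Stc1 encodes stanniocalcin-1, an inhibitor of the protease PAPP-A, which frees IGFs from binding proteins. It had 0.365, 0.265, 0.542 and 0.702 CPM in MaxKO and 3.22, 4.93, 3.37 and 1.74 CPM in Ctrl, without overlap, and fell by 2.81 (SE 0.38, edgeR adjusted p = 0.000383). These MaxKO values rest on few reads, with limits of 3 reads at 0.154 to 0.201 CPM in those libraries. Besides Irs1, Socs3, named after its value was seen, fell by 0.44 with Ctrl 3 and 4 close to MaxKO. It was -0.15 and not called against Ctrl 3 and 4 alone, and its call was lost in 6 of the 8 fits that left out 1 library. Grb10, an imprinted inhibitor of both receptors, differed between the pairs of controls. It had 51.7, 55.7, 49.2 and 47.1 CPM in MaxKO, 49.9 and 55.6 CPM in Ctrl 1 and 2, and 148 and 104 CPM in Ctrl 3 and 4. Its log2 fold change of -0.81 (SE 0.30, edgeR adjusted p = 0.0852) was not called, and it was -1.31 and called against Ctrl 3 and 4 alone. Of the IGF2 mRNA-binding proteins, Igf2bp1 had at most 5 reads in a library. Igf2bp2 and Igf2bp3 had log2 fold changes of -0.14 and -0.13 (edgeR adjusted p = 0.574 and 0.717) with overlapping groups, and Igf2bp3 was at 0.04 against Ctrl 1 and 2 alone.

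Of the 33 PI3K, AKT and mTOR genes listed, 32 were tested, 3 rose and 4 fell, beside 10.9% and 12.2% of all tested genes, with a median of 0.07; with upper-quartile scaling 2 rose and 6 fell. Deptor, an inhibitor within the mTOR complexes, had 35.9, 33.4, 32.9 and 24.0 CPM in MaxKO and 14.8, 16.1, 17.6 and 19.6 CPM in Ctrl, and rose by 0.89 (SE 0.13, edgeR adjusted p = 0.000676). Tbc1d4, the AKT substrate that controls glucose transporter traffic, rose by 0.70 (SE 0.14, edgeR adjusted p = 0.00347). Sgk1, an AKT-related kinase, had 1.30, 1.26, 1.90 and 1.72 CPM in MaxKO and 10.4, 7.88, 16.8 and 2.41 CPM in Ctrl. It fell by 2.59 (SE 0.49, edgeR adjusted p = 0.00358), with Ctrl 4 near the MaxKO libraries and no call against Ctrl 3 and 4 alone (-2.61, adjusted p = 0.0523). Pik3r1, the p85 alpha regulatory subunit of PI3K, had 71.7 to 82.7 CPM in MaxKO and 140, 121, 88.8 and 120 CPM in Ctrl, and fell by 0.59 (SE 0.12, edgeR adjusted p = 0.00401). Mlst8 (-0.27) and Pik3cd (-0.45) also passed and were named after their values were seen; their calls were lost in 3 and 5 of the 8 fits that left out 1 library. The count depended on the libraries used, with 18 genes called against Ctrl 1 and 2 alone, beside 44.6% of all genes. It was 13 without Ctrl 4, beside 3743 of 13466 tested genes. It was 4 without MaxKO 1 and 4 without MaxKO 2, beside 2228 of 13493 and 2102 of 13533 tested genes.

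Of 30 RAS-MAPK genes, all tested, 3 rose and 2 fell, beside 10.9% and 12.2% of all tested genes. Their median was 0.03 with all controls, -0.06 against Ctrl 1 and 2 alone, -0.03 without Ctrl 3, 0.12 against Ctrl 3 and 4 alone and -0.02 with upper-quartile scaling, so it has no settled sign. Ksr1, a scaffold of the cascade, rose by 0.58 (SE 0.12, edgeR adjusted p = 0.00480) and Nras by 0.40 (SE 0.09, edgeR adjusted p = 0.00539), both without overlap. Spry1, named after its value was seen, rose by 0.36, a call lost in 6 of the 8 fits that left out 1 library. Spred1, an inhibitor of RAS activation, had 0.470, 0.995, 0.339 and 0.766 CPM in MaxKO and 3.22, 3.73, 1.98 and 2.13 CPM in Ctrl, and fell by 2.11 (SE 0.34, edgeR adjusted p = 0.00110). Its MaxKO values also rest on few reads, with limits of 3 reads at 0.154 to 0.201 CPM there. Fos, an immediate early gene, fell by 1.59 (SE 0.41, edgeR adjusted p = 0.0173). That call rested on 18.9 and 19.6 CPM in Ctrl 1 and 2, since Ctrl 3, at 4.46 CPM, lay within the MaxKO range of 3.46 to 5.97 CPM. Against Ctrl 3 and 4 alone Fos was at -0.64 and not called. Its call was also lost in 3 of the 8 fits that left out 1 library and with no count filter (-1.59). The number of genes called was 12 against Ctrl 1 and 2 alone (5 higher and 7 lower, beside 44.6% of all genes). It was 8 without Ctrl 4 and 3 without MaxKO 1, beside 3743 of 13466 and 2228 of 13493 tested genes.

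The list of FOXO factors and genes known as their targets had 25 genes, 19 of them tested. Of these 1 rose and 7 fell, beside 10.9% and 12.2% of all tested genes, and the median was -0.28 beside -0.004 for all tested genes. The list was chosen with earlier results of these data known, so these values are a description. The median was -0.44 against Ctrl 1 and 2 alone and -0.11 against Ctrl 3 and 4 alone, where 2 genes were higher and 4 lower. Bnip3, a mitophagy gene also induced by hypoxia, had 43.7, 47.5, 37.7 and 32.4 CPM in MaxKO and 71.2, 76.6, 78.6 and 112 CPM in Ctrl, and fell by 1.07 (SE 0.15, edgeR adjusted p = 0.000641). Bcl6, a transcriptional repressor, had 0.626, 1.19, 0.474 and 1.595 CPM in MaxKO and 7.55, 6.07, 2.27 and 2.97 CPM in Ctrl, and fell by 2.29 (SE 0.45, edgeR adjusted p = 0.00403). Cited2, a transcriptional coregulator, fell by 0.90 (SE 0.20, edgeR adjusted p = 0.00794) and Ccng2, a cyclin linked to cell cycle exit, by 0.89 (SE 0.22, edgeR adjusted p = 0.0153). For both, Ctrl 1 and 2 stood far above Ctrl 3 and 4: Cited2 had 92.5 and 88.0 against 49.7 and 50.4 CPM, and 35.2 to 39.9 CPM in MaxKO. The call of Ccng2 was lost with no count filter (-0.88). Gadd45a, Foxo1 and Sesn1 fell by 0.88, 0.35 and 0.33, and Eif4ebp1, a translation repressor downstream of mTOR, rose by 0.93; all were named after their values were seen. The call of Eif4ebp1 was lost without MaxKO 1, without MaxKO 3, without Ctrl 2 and without the count filter (log2 fold changes 0.84, 0.93, 0.86 and 0.94). The calls of Foxo1, Gadd45a and Sesn1 were lost in 3, 1 and 6 of the 8 fits that left out 1 library. Against Ctrl 3 and 4 alone these genes were at -0.30, -0.32 and -0.16, and none was called. Gadd45a had 19.2 and 20.3 CPM in Ctrl 1 and 2, 10.7 and 9.65 CPM in Ctrl 3 and 4, and 7.66 to 8.77 CPM in MaxKO. With Ctrl 1 and 2 alone 15 genes of the list were called, beside 44.6% of all genes, and with Ctrl 3 and 4 alone 6, beside 20.7%. The count was 5 without MaxKO 2 and 5 without MaxKO 3, beside 2102 of 13533 and 2243 of 13531 tested genes.

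**Figure D4:**
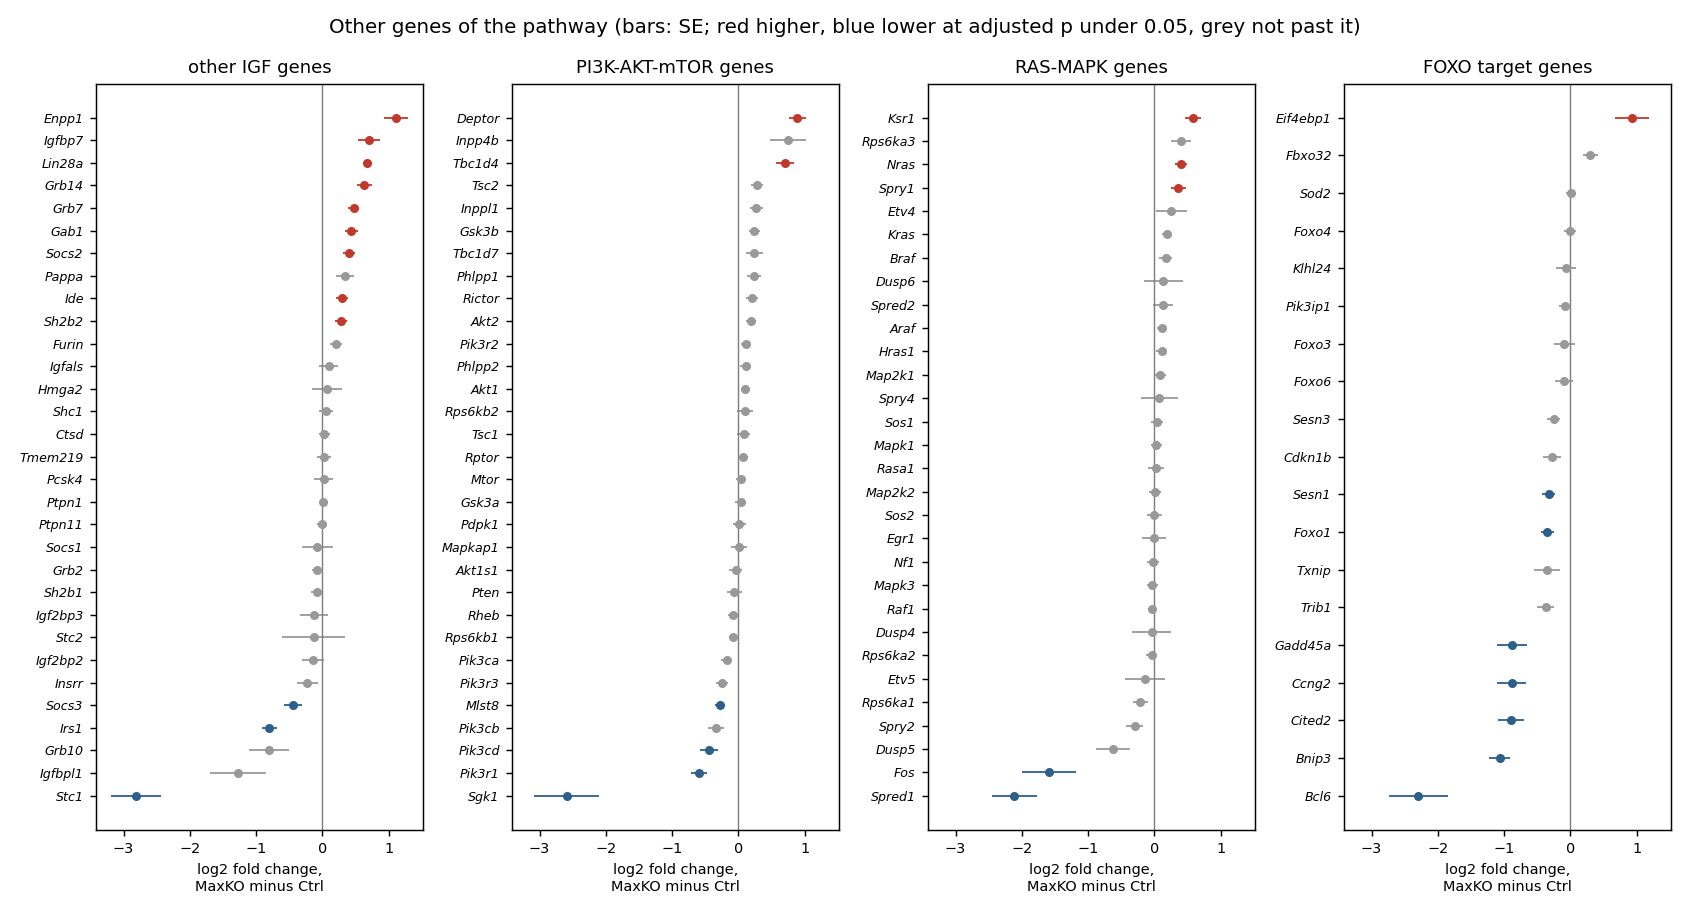
Log2 fold change, MaxKO minus Ctrl with all 4 controls, of the tested genes of the 4 lists, 1 gene left out (bars: SE), in red where higher and blue where lower at an adjusted p under 0.05. Of the other IGF genes 9 are red and 3 blue, and in the FOXO list 1 is red and 7 are blue. Over all tested genes 10.9% were higher and 12.2% lower at that threshold.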

How the data were processed

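The deposited files hold raw counts per gene symbol, which per the submitters' processing notes the authors made with bcl2fastq 1.8.4, TopHat2 2.0.12 on mm9 and HTSeq 0.6.1. Annotation and strand setting were not given in the sources used here. Per the labels' protocols, total RNA from TRIZOL extraction went into the NEB Ultra RNA kit. The 5 HTSeq summary rows were left out. Symbols are those of the files. Exon lengths come from another build (GRCm38) and matched 12059 of 13358 tested genes.

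The members, the gene lists and the tests were chosen with earlier results of these data known. Genes were kept with filterByExpr and scaled by TMM (genes under the filter, marker sums and limits of 3 reads by plain totals). The groups were compared with edgeR 4.0.16 in R 4.3.3 (glmQLFit with robust estimation, glmQLFTest, group as the only term), with Benjamini-Hochberg adjustment over all tested genes. An SE is the absolute log2 fold change over the root of F. The code was tested on simulated counts. Named genes are the 10 members, Max, Rb1, Trp53, Rbl2, always-named relatives (Igf1, Ins2, Irs1, Irs4, Igfbp1, Igfbp7, Igfals, Igf2bp1 to Igf2bp3, Grb10, H19), up to 4 further genes of smallest p per list, the nearest tested neighbour on each side, and the 8 genes most like Igfbp2 or Irs2 (log2 CPM with a prior count of 2, average at least 1, no clone names). Others are said to be chosen after their values were seen. A listed gene is counted but not reported here by name.

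Each result was recomputed with upper-quartile and RLE scaling, without a filter, with a minimum of 1 CPM in 4 libraries, DESeq2 1.42.0, limma-voom (limma 3.58.1), no robust estimation, a replicate block, leaving out each library, and controls 1 and 2 or 3 and 4 alone. No pair of replicates agreed within sampling noise (chi-square per degree of freedom 3.86 to 37.7), so none was counted as 1 library.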

Additional observations from a re-analysis of the deposited data

Results flagged for a closer look

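In 17 of 144 groups of 4 libraries examined, 1 library stood apart from the other 3, by Dixon's gap ratio above its 95% critical value. Chance alone marks about 1 group in 20, and 11 of the 17 were in Ctrl 3. Genes chosen for likeness to Igfbp2 or Irs2 share that library's deviation by that choice.

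Igfbp2 had 41.9 CPM in Ctrl 3 against 8.08 to 10.6 CPM in the other controls. Of the genes most like it, Ctrl 3 stood above the other controls for Pcbp4 (312 CPM), Rtn1 (58.1 CPM), Sh2d3c (13.5 CPM), Cald1 (58.9 CPM) and Tbkbp1 (8.20 CPM). Of the genes most like Irs2, Ctrl 3 stood below the others for Ppp1r15b (142 CPM), Slc35d3 (144 CPM) and Qsox2 (43.0 CPM). H19, the non-coding neighbour of Igf2 in the imprinted domain, had 5.47 CPM in Ctrl 3, from 75 reads, and at most 2 reads in any other library. Igf1 had 0.292 CPM in Ctrl 3, from 4 reads.

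Ctrl 4 stood above the other controls for Igf2 (501 CPM), Igf2as (79.7 CPM), 4732491K20Rik (5.05 CPM) and Mest (22.9 CPM). Among the MaxKO libraries, MaxKO 2 stood above the others for Insr (85.2 CPM) and below them for Synm (0.730 CPM).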

How the results depend on the processing

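Of the 7 tested axis genes, none changed direction under any alternative, and Igf1r, Igfbp2 and Igfbp5 were called under all of them. The alternatives reuse the libraries from which the list was chosen, so this is a description and adds no support. With 1 library left out, the genes called numbered 2102 to 3743 over all tested genes, 3 to 5 of the axis genes, 10 to 14 of the other IGF genes, 4 to 13 of the PI3K list, 3 to 8 of the RAS-MAPK list, 5 to 11 of the FOXO list and 6 to 7 of the imprinted list. Against Ctrl 1 and 2 alone the calls were 6068 over all genes, 18 in the PI3K list, 12 in the RAS-MAPK list and 15 in the FOXO list. DESeq2 called 12 of the PI3K list and 3434 over all genes. The cause was not tested. Replicate numbers did not pair the samples: same-numbered libraries correlated at -0.20 to 0.002 in their deviations, and 0 of 8 correlated best with its own number. With the replicate block, 2532 genes were called, 5 of the axis genes (Irs2 added, log2 fold change 0.42), 9 of the other IGF genes, 4 of the PI3K list, 5 of the RAS-MAPK list and 8 of the FOXO list. Among list medians, that of the RAS-MAPK list turned from 0.03 to -0.06 with Ctrl 1 and 2 alone, -0.03 without Ctrl 3 and -0.02 with upper-quartile scaling, that of the other IGF genes from 0.02 to -0.02 with upper-quartile scaling, -0.08 with no filter and -0.01 without MaxKO 3, and that of the imprinted list from -0.11 to 0.02 without Ctrl 3. The median of the axis genes was 0.27, and -0.04 with no filter, when the 3 genes with hardly any reads enter. Among single genes the sign turned for Igf2bp3 (0.0394), Synm (0.188) and Myo16 (-0.275) with Ctrl 1 and 2 alone. With Ctrl 3 and 4 alone they turned for Mrpl23 (-0.00833), Igf2as (-0.0892), Airn (-0.132), Top2a (0.0358), Smarce1 (-0.00763) and Spryd3 (-0.0692). With upper-quartile scaling they turned for Igf2as (-0.0460), Smarce1 (-0.0440) and Spryd3 (-0.0384), with the 1 CPM filter for Igf2as (-0.0105), Smarce1 (-0.00812) and Spryd3 (-0.00255), and with DESeq2 for Igf2as (-4.7187e-05). With 1 library left out, Igf2as ranged from -0.0411 to 0.0859, Synm from -0.288 to 0.0961, Myo16 from -0.114 to 0.333, Top2a from -0.0800 to 0.00945, Smarce1 from -0.0435 to 0.0539 and Spryd3 from -0.0502 to 0.0411. Read depth limits Igfbp3, Igfbp4 and Igfbp6, at 3 reads or fewer per library.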

Other observations

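Igf2 lies in an imprinted domain, and 20 genes of the imprinted growth network were listed, of which 11 were tested. Of these 4 rose and 2 fell, beside 10.9% and 12.2% of all tested genes, with a median of -0.11 that was 0.02 without Ctrl 3. Rasgrf1, a RAS exchange factor, had 9.92, 10.1, 10.6 and 10.02 CPM in MaxKO and 3.78, 3.55, 2.56 and 3.87 CPM in Ctrl, and rose by 1.55 on the log2 scale (SE 0.15, edgeR adjusted p = 3.87e-05). Mest rose by 0.82 (SE 0.14, edgeR adjusted p = 0.00163), and Dcn and Kcnq1, named after their values were seen, rose by 0.77 and 0.64. Kcnq1 was at 0.93 against Ctrl 1 and 2 alone and at 0.38, not called, against Ctrl 3 and 4 alone. Cdkn1c, the CDK inhibitor p57, had 13.4, 15.1, 16.3 and 18.5 CPM in MaxKO and 57.5, 59.4, 65.1 and 34.6 CPM in Ctrl, and fell by 1.77 (SE 0.18, edgeR adjusted p = 8.75e-05). Cd81, a tetraspanin gene near Igf2, had 74.8 to 85.2 CPM in MaxKO and 121 to 137 CPM in Ctrl, and fell by 0.69 (SE 0.07, edgeR adjusted p = 7.51e-05).

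Besides H19, Lin28b and Magel2 under the count filter, both named after their values were seen, had most of their reads in Ctrl 3: Lin28b had 179 reads there and at most 12 in any other library, and Magel2 had 266 and at most 15.

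The genes altered in the parent cells were also read. Rb1 (log2 fold change 0.23, edgeR adjusted p = 0.184) and Trp53 (0.05, edgeR adjusted p = 0.718) did not pass the test, and Rbl2, which encodes p130, fell by 0.38 (edgeR adjusted p = 0.0323), a call that leaving out any of 6 libraries ended.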
